A study of Mus musculus with 87 samples.

Results

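Ciita and 6 genes of the class II pathway, Cd74, H2-Aa, H2-Ab1, H2-Eb1, H2-DMa and H2-DMb1, were followed across every library of the series. They were taken by gene symbol, and all 7 were found among the 48526 genes of the sorted-nucleus wells and among the 48531 genes of the single-nucleus table. The mice were wild-type C57BL/6J adults of both sexes aged 6 to 12 months, which received 40 ng of IFN-γ in saline or saline alone in the ventral midbrain and carried no other treatment. Nuclei were sorted with an antibody to NeuN, a neuronal nuclear protein, into NeuN- and NeuN+ wells at 6, 24, 48 and 72 h, with 4 saline wells (6 at 24 h) and 6 IFN-γ wells per fraction and time, 84 in all. The deposit marks every well as NeuN+, so the fraction was taken from the study's own well list. That list gives equal numbers of NeuN- and NeuN+ wells, whereas a supplementary figure legend of the study counts fewer NeuN- than NeuN+ samples. The wells of a treatment and time came from 2 to 3 mice. Some wells of a group therefore share a mouse, which ones was not given, and p-values over wells measure the spread between wells and are too small for a comparison of mice. A further 4699 nuclei, NeuN- and NeuN+ pooled, came from 1 saline mouse (1016) and 2 IFN-γ mice (2574 and 1109) at 48 h, with no barcode shared between libraries.

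Class II molecules present peptides from the endocytic route to CD4+ T cells. Their genes are switched on together by CIITA, a co-activator that binds no DNA itself and is recruited by RFX, CREB and NF-Y proteins sitting on the conserved X and Y boxes of class II promoters, and IFN-γ induces Ciita in part through IRF1. In the brain, microglia and other myeloid cells are the best known source of class II after IFN-γ, while in C57BL/6 mice the H2-Ea gene is defective, so that H2-Eb1 has no partner chain and H2-Aa with H2-Ab1 form the classical surface molecule. Cd74, the invariant chain, occupies the groove during transport, and H2-DMa and H2-DMb1 encode the pair that exchanges its remnant for peptide.

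The promoters of 3 members are shown because they share the letters of these boxes, which the choice by symbol did not use. The sequences are RefSeq promoters of GRCm38.p6, from 250 bases before the transcription start to 50 after it, on the coding strand. H2-Aa lies at chr17:34287774-34288073 on the minus strand, H2-Eb1 at chr17:34305617-34305916 and H2-DMb1 at chr17:34152941-34153240, both on the plus strand. Capitals mark GNAAC, letters at the start of the X box, and GATTGG, the Y box, the reverse complement of CCAAT:
H2-Aa: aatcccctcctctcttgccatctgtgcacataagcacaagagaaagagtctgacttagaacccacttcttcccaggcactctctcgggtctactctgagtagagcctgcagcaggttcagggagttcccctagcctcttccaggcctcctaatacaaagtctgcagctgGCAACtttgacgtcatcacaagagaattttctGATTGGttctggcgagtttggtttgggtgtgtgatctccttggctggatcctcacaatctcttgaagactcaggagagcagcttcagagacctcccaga
H2-Eb1: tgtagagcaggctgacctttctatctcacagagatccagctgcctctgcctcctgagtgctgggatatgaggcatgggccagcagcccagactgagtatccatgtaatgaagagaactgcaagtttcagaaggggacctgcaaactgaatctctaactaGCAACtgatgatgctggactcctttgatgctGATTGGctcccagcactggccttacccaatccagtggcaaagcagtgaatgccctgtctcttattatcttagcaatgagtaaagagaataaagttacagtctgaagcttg
H2-DMb1: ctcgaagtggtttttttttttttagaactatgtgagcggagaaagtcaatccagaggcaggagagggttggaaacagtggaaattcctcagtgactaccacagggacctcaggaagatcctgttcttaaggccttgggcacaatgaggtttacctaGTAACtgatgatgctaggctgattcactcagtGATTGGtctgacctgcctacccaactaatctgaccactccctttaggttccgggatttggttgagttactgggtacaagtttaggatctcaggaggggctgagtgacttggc

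The letters stood 27 bases apart in H2-Aa and H2-DMb1 and 26 in H2-Eb1. GATTGG alone occurred on either strand in 5292 of 32851 promoters (16.11%). The pair, GNAAC followed by GATTGG after 20 to 35 bases, occurred on either strand in 303 (0.9223%). In the members' own windows the pair was searched on the coding strand only. H2-DMa has 2 windows in the table, of which the second held GATTGG and neither held the pair on that strand. Ciita, at chr16:10480059-10528418, and H2-Ab1, at chr17:34257689-34269419, had no entry in the promoter table. Cd74 was left out of the windows examined for members, so whether its promoter holds the letters is not described. A match describes letters in a window and not a bound site.

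The nuclei fell into classes that were named from marker lists, with the 7 members left out of the genes used to cluster. One cluster of 134 nuclei, 31 from the saline mouse and 49 and 54 from the IFN-γ mice, held UMIs of all 19 microglia markers in each library and was called microglia-like. Its monocyte list scored higher than its microglia list (z of 4.29 against 3.89), and the name followed the 4 microglia markers among its 10 leading genes, a rule set after the data were seen. In saline its microglia list summed to 21826 CPM (UMIs per 1e6 UMIs of the class), and in the IFN-γ mice to 17362 and 17784. Levels below are the UMIs of a gene over a class in 1 library, as CPM of that class, with intervals that cover counting error only.

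In the microglia-like nuclei the chain genes, Cd74 and Ciita were not detected in saline and were detected in both IFN-γ mice, Cd74 at the highest level. Cd74 had 0 UMIs in 31 saline nuclei, 286 in the first and 817 in the second IFN-γ mouse, which is 1460 and 3516 CPM. H2-Aa had 0, 135 and 387 UMIs (689 and 1666 CPM in the IFN-γ mice). H2-Ab1, the partner chain of H2-Aa, had 0, 104 and 316 UMIs (531 and 1360 CPM). H2-Eb1, the chain without a partner in this strain, was at a similar level, with 0, 94 and 297 UMIs (480 and 1278 CPM). Ciita itself had 0, 27 and 37 UMIs (138 and 159 CPM), at a like level in both mice. Dexi, which overlaps Ciita on the opposite strand, had 1, 16 and 12 UMIs in the saline and the IFN-γ libraries of this class. The use of strand in counting was not stated, so reads of the 2 genes cannot be told apart in these nuclei either. Against the floor of 3 UMIs in the saline library, 35.7 CPM, Cd74 was at least 40.9-fold and 98.4-fold higher, H2-Aa at least 19.3-fold and 46.6-fold, H2-Ab1 at least 14.9-fold and 38.1-fold, H2-Eb1 at least 13.4-fold and 35.8-fold, and Ciita at least 3.86-fold and 4.46-fold.

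The peptide editors already had UMIs without IFN-γ, those of H2-DMa at the floor of 3. H2-DMa had 3, 5 and 21 UMIs in the saline and the 2 IFN-γ libraries (35.7, 25.5 and 90.4 CPM), and the saline level lay between those of the IFN-γ mice. H2-DMb1 had 5, 26 and 43 UMIs (59.5, 133 and 185 CPM), higher in both IFN-γ mice over the whole cluster. In its nuclei without markers of other immune cells, described below, H2-DMb1 stood at 70.1, 77.0 and 77.5 CPM. H2-DMa and H2-DMb1 were the only members with a UMI in saline microglia-like nuclei.

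**Figure D1:**
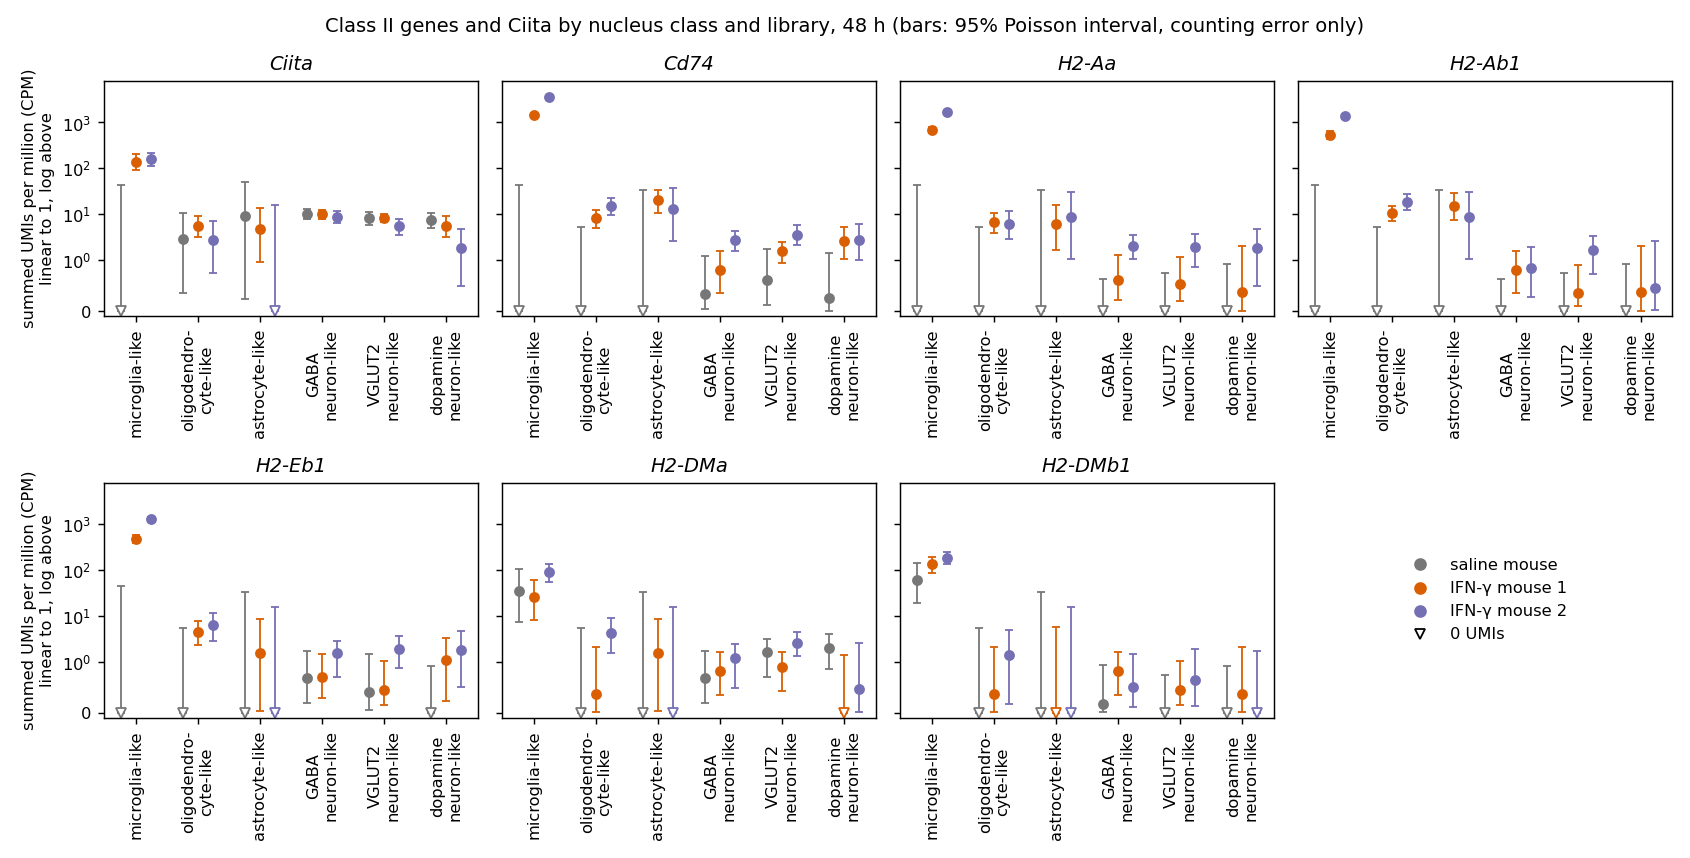
Summed UMIs of each member, as CPM, (1 panel each) in 6 nucleus classes of the 3 single-nucleus libraries at 48 h, on an axis that is linear to 1 and logarithmic above; bars are 95% Poisson intervals. The chain genes and Cd74 stand at 480 to 3516 CPM in the microglia-like nuclei of the IFN-γ mice and at 0 UMIs in the saline mouse, while Ciita in neuron-like nuclei is at similar levels in the GABA and VGLUT2 classes of all 3 mice.

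In edgeR's quasi-likelihood test on the 3 library sums, where a call needed a log2 fold change over 3 in each IFN-γ library and an adjusted p under 0.01, 3 of 7 members were called higher: Cd74 (adjusted p = 0.00097), Ciita (0.0021) and H2-Aa (0.00275). Over all 7795 genes tested in this class, 0.641% were called higher. H2-Ab1 (adjusted p = 0.0107) and H2-Eb1 (0.0337) missed the limit, though each had 0 UMIs in saline. Without the filter on low sums both passed (3.45e-20 and 9.38e-19), giving 5 of 7, where 63 of 15449 genes were called higher. The UMIs of both genes were the same in either fit, and each fit had 1 residual degree of freedom. The smaller p-values therefore reflect the choice of filter and are not stronger evidence of a difference between mice. H2-DMb1 had a log2 fold change of 1.40 (SE 0.63, adjusted p = 0.244) and H2-DMa of 0.71 (SE 0.89, adjusted p = 0.79). With 1 saline mouse, the spread between saline mice was not measured, and fitted folds against 0 UMIs, which depend on the prior count, are not given.

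The second IFN-γ mouse held more class II transcript than the first. It exceeded the first 2.41-fold for Cd74, 2.42-fold for H2-Aa, 2.56-fold for H2-Ab1 and 2.66-fold for H2-Eb1, against 1.16-fold for Ciita and 1.39-fold for H2-DMb1. Over the whole cluster, the chain genes and Cd74 kept nearly the same proportions in both mice. Of all UMIs of the 6 members other than Ciita, Cd74 took 44% (exact 95% binomial interval 40.1 to 47.9) and 43.4% (41.2 to 45.7), H2-Aa 20.8% and 20.6%, H2-Ab1 16% and 16.8%, and H2-Eb1 14.5% and 15.8%.

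Nuclei varied widely within a mouse. The lowest, median and highest Cd74 counts per microglia-like nucleus were 0, 2 and 34 UMIs in the first IFN-γ mouse and 0, 6 and 115 in the second. Summed over the 6 members, the median was 5 UMIs (highest 90) and 12.5 (highest 257), against a median of 0 and a highest count of 2 in saline. Only 4 of 49 and 1 of 54 nuclei of the IFN-γ mice lacked a UMI of any of the 7 members, against 25 of 31 in saline. Of the nuclei with a Ciita UMI, 14 of 15 and 18 of 19 also held Cd74, and of those without one 25 of 34 and 32 of 35 did. For H2-Aa the counts were 12 of 15 and 18 of 19 with Ciita, and 18 of 34 and 24 of 35 without. Median UMIs per nucleus were 2801, 3800 and 3909 in the saline and the IFN-γ libraries, so a nucleus without a UMI is not shown to lack the transcript.

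Markers of other immune cells moved with this result. In the microglia-like cluster the monocyte list (Ccr2, Ly6c2, Plac8) had 1 UMI in saline and 55 and 125 in the IFN-γ mice, with 1, 2 and 3 of its genes present and 1 of 31, 11 of 49 and 22 of 54 nuclei holding any. Those 11 and 22 nuclei of the IFN-γ mice held most of the cluster's Cd74, 202 of 286 and 651 of 817 UMIs. Cd74 stood at 5184 and 7936 CPM in them and at 535 and 1104 CPM in the nuclei without monocyte markers. The dendritic cell list, 6 genes of which none had a UMI in saline and 4 had in each IFN-γ mouse, had 0, 18 and 28 UMIs. Perivascular macrophage markers had 76, 1 and 41 UMIs, T cell markers 0, 1 and 4, and B cell markers 0, 0 and 1. The endothelial list, with 0, 22 and 27 UMIs, was likewise higher in count. Nuclei with any UMI of the monocyte, perivascular macrophage, dendritic, T or B cell lists numbered 5, 19 and 29, and they held more class II transcript. Cd74 stood at 3472 and 5260 CPM in those nuclei of the IFN-γ mice and at 439 and 1336 CPM in the rest, a ratio of 7.92 and 3.94. The ratio was 8.67 and 4.73 for H2-Aa, 15.1 and 4.36 for H2-Ab1, 6.45 and 4.73 for H2-Eb1 and 2.46 and 4.13 for Ciita. P2ry12, a marker of resident microglia, had UMIs in 10 of the 19 and 15 of the 29 such nuclei, and in 27 of 30 and 21 of 25 of the others, which held 0 UMIs of Ccr2 by the way they were chosen. Siglech, also on the microglia list, had UMIs in 5 of 19 and 8 of 29 such nuclei, and in 25 of 30 and 16 of 25 of the others. Tmem119 had UMIs in 1 of 19 and 4 of 29, and in 7 of 30 and 10 of 25 of the others.

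The members were also present in the nuclei without markers of other immune cells. Among these, 22 of 30 and 21 of 25 IFN-γ nuclei held Cd74, against 0 of 26 in saline, and Cd74 was at least 10.4-fold and 31.8-fold above the saline floor. The levels in the 2 IFN-γ mice were 192 and 542 CPM for H2-Aa, 92.4 and 475 CPM for H2-Ab1 and 169 and 416 CPM for H2-Eb1. In edgeR on these nuclei alone, a comparison added after the data were seen, 4 of 7 members were called higher, Cd74 (adjusted p = 2.73e-09), H2-Aa (1.44e-07), H2-Eb1 (3.91e-06) and H2-Ab1 (0.00295), where 0.62% of 5963 genes were. Ciita was not called there (12 and 6 UMIs, adjusted p = 0.125), nor were H2-DMb1 (log2 fold change 0.13, SE 0.81) and H2-DMa (-0.11, SE 1.07). The adjusted p-values here and in the whole cluster come from separate fits, each with 1 residual degree of freedom. A smaller value here is therefore not a stronger result. The part that other immune cells have in the level of the whole cluster was not tested beyond this removal, and a cell of another type without a UMI of its markers would remain among these nuclei.

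**Figure D2:**
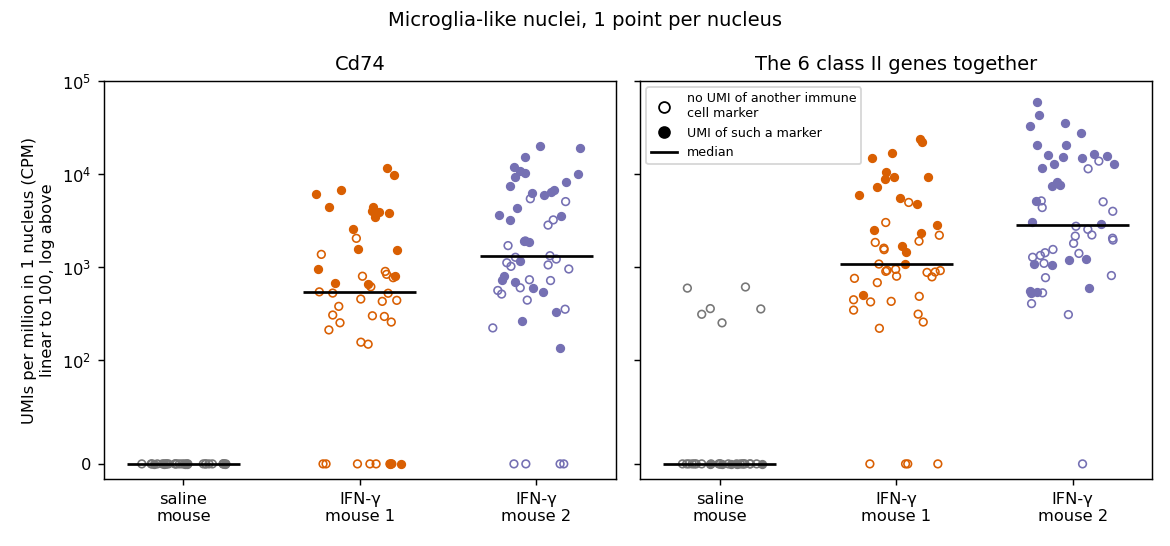
Cd74 (left) and the 6 class II genes other than Ciita (right) in single microglia-like nuclei, as CPM of the nucleus on an axis that is linear to 100 and logarithmic above; filled points hold a UMI of a monocyte, perivascular macrophage, dendritic, T or B cell marker and lines are medians. Filled points reach the highest levels in both IFN-γ mice, open points also lie above 0 in most nuclei, and all 31 saline nuclei are at 0 for Cd74.

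The genes around the members gave a mixed picture in the microglia-like nuclei. Nlrc5, the class I counterpart of Ciita, was called higher (log2 fold change 3.90, SE 0.86, adjusted p = 0.00233), with 1, 41 and 40 UMIs. Among 8 upstream genes, 7 were tested and 0 called. Irf1 had 2, 40 and 55 UMIs and a log2 fold change of 3.16 (SE 0.70, adjusted p = 0.00249) but was below the limit of 3 in 1 library, and the receptor chain Ifngr1 had 30, 21 and 36 UMIs and a log2 fold change of -1.45 (SE 0.40, adjusted p = 0.0212). Of the 7 enhanceosome genes 4 were tested and 0 called (median log2 fold change -0.32, against 0.10 over all genes), and of 6 processing genes 5 were tested and 0 called, including Ctss, the protease that trims Cd74, with 91, 238 and 390 UMIs and a log2 fold change of 0.40 (SE 0.30). Among 3 co-stimulation genes 0 were called, and Cd40 had 0, 7 and 18 UMIs (adjusted p = 0.101). Of the accessory class II genes, H2-Oa, a chain of the H2-O inhibitor of H2-DM, had 0, 1 and 8 UMIs, H2-Ob, its partner, 2, 6 and 6, H2-DMb2 0, 0 and 3, and H2-Eb2 and the remnant H2-Ea-ps 0 in all 3 libraries.

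Oligodendrocyte-like nuclei, 191, 744 and 306 in number, held class II transcripts at a much lower level than microglia-like nuclei and in other proportions. H2-Ab1 had 0 UMIs in saline and 29 and 27 in the IFN-γ mice (10.7 and 18.7 CPM), spread over 28 of 744 and 24 of 306 nuclei. Cd74 had 0, 22 and 22 UMIs (8.15 and 15.2 CPM), H2-Aa 0, 18 and 9, and H2-Eb1 0, 12 and 9. Ciita had 2, 15 and 4 UMIs, a log2 fold change of 0.69 (SE 1.06, adjusted p = 0.888). H2-Ab1 was at least 2.49-fold and 4.33-fold above the saline floor of 4.32 CPM and was the 1 member called by edgeR (adjusted p = 0.00284), where 0.593% of 12806 genes were called higher; Cd74 had an adjusted p of 0.0142. Over the whole microglia-like cluster, nuclei with markers of other immune cells included, Cd74 exceeded its level here 179-fold and 231-fold in the 2 IFN-γ mice. H2-Ab1 did so 49.4-fold and 72.7-fold.

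The proportions were measured as the make-up of the 6-member UMIs. For microglia-like nuclei the whole cluster was used, nuclei with markers of other immune cells included. The make-up without those nuclei was not compared. H2-Ab1 made up 34.9% (24.8 to 46.2) and 36% (25.2 to 47.9) of them in oligodendrocyte-like nuclei, against 16% (13.3 to 19.05) and 16.8% (15.1 to 18.6) in microglia-like nuclei, and the intervals did not overlap in either mouse. Cd74 made up 26.5% (17.4 to 37.3) and 29.3% (19.4 to 41.0), against 44% and 43.4%. Within oligodendrocyte-like nuclei the intervals of H2-Ab1 and Cd74 overlapped in both mice, so their order was not separated.

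**Figure D3:**
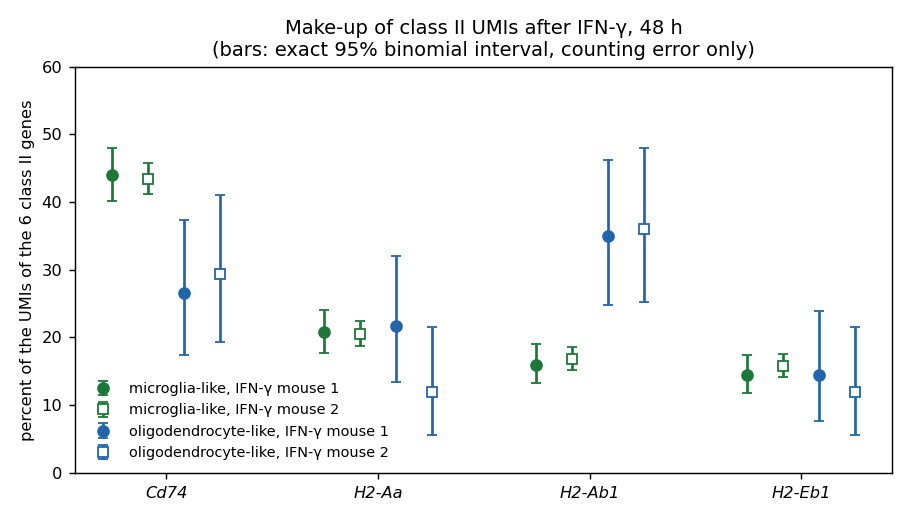
Share of Cd74, H2-Aa, H2-Ab1 and H2-Eb1 in the UMIs of the 6 class II genes other than Ciita, for microglia-like and oligodendrocyte-like nuclei of the 2 IFN-γ mice, with exact 95% binomial intervals. H2-Ab1 takes 34.9% and 36% in oligodendrocyte-like nuclei and 16% and 16.8% in microglia-like nuclei, with intervals that do not overlap.

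The oligodendrocyte-like class holds a cluster of 566 nuclei with no saline nucleus, led by the IFN-γ response gene Iigp1, beside 2 clusters with nuclei of all mice, so the saline and IFN-γ values rest in part on different clusters. Class I genes moved far more in the same nuclei: B2m, the light chain, had 2.88, 844 and 1145 CPM in the saline and the IFN-γ mice, and H2-K1, a heavy chain, 1.44, 328 and 416 CPM. Irf1 was the 1 of 7 upstream genes tested that was called (log2 fold change 9.56, SE 1.12, adjusted p = 8.27e-15).

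Astrocyte-like nuclei, 21, 135 and 37 in number, had 0, 13 and 3 UMIs of Cd74 and 0, 10 and 2 of H2-Ab1. Neither was called (adjusted p = 0.683 and 0.72), where 0.0844% of genes were called higher, and with 109155 UMIs in the saline class its floor of 27.5 CPM lay above both IFN-γ levels of Cd74, so a rise was not detectable at this depth. In the first IFN-γ mouse Cd74 stood at 20.1 and H2-Ab1 at 15.5 CPM, against 8.15 and 10.7 CPM in oligodendrocyte-like nuclei. The make-up of these few UMIs was not compared. The low level and the proportions above are therefore not shown to be particular to oligodendrocyte-like nuclei.

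In neuron-like nuclei Cd74 stayed under 4 CPM in every library, and Ciita was detected in each class and library, saline included. Cd74 stood at 0.336, 0.809 and 2.70 CPM in the saline and the IFN-γ mice in GABA neuron-like nuclei, at 0.609, 1.60 and 3.59 CPM in VGLUT2 and at 0.251, 2.60 and 2.74 CPM in dopamine neuron-like nuclei. No member was called higher in the GABA, VGLUT2 or dopamine classes by edgeR, with or without the filter. With the filter 0%, 0.00534% and 0.063% of genes were called higher, and without it 12 of 26505, 21 of 26588 and 10 of 23802. At an unadjusted p under 0.05 the filtered fits had 2, 0 and 1 members of the 7, 6 and 2 tested, where 371 of 18678, 960 of 18728 and 519 of 15861 genes passed it. The unfiltered fits had 3, 3 and 3 of 7, where 775 of 26505, 1549 of 26588 and 618 of 23802 genes did. H2-Aa had 0 UMIs in the saline nuclei of all 3 classes, 6 and 12 in the GABA nuclei of the IFN-γ mice, 6 and 9 in VGLUT2 and 1 and 4 in dopamine nuclei. Ciita had 61, 98 and 52 UMIs in GABA (10.2, 9.91 and 8.78 CPM), 40, 92 and 26 in VGLUT2 (8.11, 8.18 and 5.49 CPM) and 30, 15 and 4 in dopamine nuclei (7.53, 5.57 and 1.83 CPM). Its log2 fold changes were -0.13 (SE 0.27), -0.19 (SE 0.36) and -0.96 (SE 0.56), none called. Ciita overlaps Dexi, a gene of the opposite strand, over 25888 bases, and Dexi had 367, 572 and 320 UMIs in GABA nuclei; introns were counted and the use of strand was not stated, so reads of the 2 genes cannot be told apart here. Of the GABA and VGLUT2 neuron-like clusters, 4 came mostly from the first IFN-γ mouse (121 of 125, 98 of 114, 81 of 95 and 87 of 93 nuclei), so these classes rest in part on different clusters in each mouse. Like Ciita, H2-DMa overlaps Brd2, on the other strand, over 3094 bases, and H2-Eb1 overlaps Gm20513, also on the other strand, over 2204 bases.

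Shares of nuclei were compared after thinning each nucleus to 1500 UMIs. Cd74 was found in 66.0% (50.7 to 79.1) and 75% (61.1 to 86.0) of microglia-like nuclei of the IFN-γ mice, from 79.6% and 92.6% unthinned. In oligodendrocyte-like nuclei it was found in 1.23% and 2.32% (2.69% and 6.86% unthinned), in astrocyte-like nuclei in 3.76% (1.23 to 8.56) and 2.70% (0.0684 to 14.2), and in the neuron-like classes of these mice in 0 to 1.32%. The intervals of oligodendrocyte-like nuclei (0.563 to 2.32 and 0.937 to 4.72) and of VGLUT2 nuclei (0.0346 to 1.03 and 0.273 to 3.81) overlapped. At this depth these shares of Cd74 were therefore not separated. The summed Cd74 levels given above, which use every UMI, were higher in oligodendrocyte-like than in all neuron-like classes of both IFN-γ mice. For H2-Ab1 the shares were 2.05% (1.15 to 3.35) and 1.66% (0.540 to 3.82) in oligodendrocyte-like nuclei and 0 of 701 (upper limit 0.525) and 0.441% (0.0112 to 2.43) in VGLUT2 nuclei, separate in the first mouse and overlapping in the second.

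The sorted wells gave the time course, at low counts. NeuN- wells held 20962 to 301445 UMIs and NeuN+ wells 277113 to 1684374, so 1 count is worth more CPM in a NeuN- well. Marker lists went with the assigned fraction: 5 pan-neuronal genes had medians of 175 CPM in NeuN- and 2790 in NeuN+ wells, 19 microglia markers 1313 and 159, and 8 oligodendrocyte markers 8293 and 368. Fewer cells of a type and less RNA per cell cannot be told apart in these wells. None of the 7 members passed edgeR's filter on low counts in any comparison of the fractions, treatments or times, so the tests below are those without the filter.

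Of the 7 members, Ciita, with Dexi on the other strand as above, had the highest ratio of IFN-γ to saline counts in NeuN- wells. Over all times Ciita had 1 count in 18 saline wells and 44 in 24 IFN-γ wells (0.497 and 13.9 CPM, ratio 27.9, 95% counting interval 4.75 to 1126), with a count in 1 of 18 and 18 of 24 wells. At 6, 24 and 48 h every saline well was at 0, and at 72 h the 4 wells had 0, 0, 0 and 7.44 CPM. The lowest, median and highest IFN-γ wells were at 0, 6.78 and 16.96 CPM at 6 h, 0, 13.2 and 29.9 at 24 h, 0, 12.6 and 28.9 at 48 h and 0, 13.7 and 25.1 at 72 h. At least 1 IFN-γ well had no count at each time, so the groups overlapped at 0. As group totals, Ciita stood at 8.22, 17.1, 14.9 and 14.3 CPM at the 4 times, and the counting intervals of neighbouring times overlapped.

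The 6 targets exceeded their saline level in the same wells from 24 h on. Their summed level in saline wells was 26.1, 9.54, 0 and 3.74 CPM at 6, 24, 48 and 72 h, and in IFN-γ wells 19.2, 33.2, 47.6 and 47.7 CPM. At 6 h the saline wells had 29.0, 34.3, 19.99 and 19.1 CPM and the IFN-γ wells ran from 0 (median 17.2) to 29.1, so the groups overlapped and the ratio of totals was 0.734 (0.315 to 1.74). At 24 h the saline wells ran from 0 through 5.51 to 28.9 CPM and the IFN-γ wells from 14.7 through 31.6 to 80.4, and the groups overlapped. At 48 h every saline well was at 0 and the IFN-γ wells ran from 22.8 through 50.5 to 57.9 CPM. Their total of 47.6 CPM was at least 7.82-fold above the floor of 3 counts over the saline group. At 72 h the saline wells had 7.19, 0, 9.08 and 0 CPM and the IFN-γ wells 19.1 to 68.4 (median 44.2), without overlap. Cd74 had 4 counts in saline and 4 in IFN-γ wells at 6 h, 0 and 2 at 24 h, 0 and 11 at 48 h and 0 and 12 at 72 h. H2-Aa had 4 and 3 counts at 6 h, 0 and 10 at 24 h, 0 and 10 at 48 h and 1 and 9 at 72 h. H2-Eb1 had 1 and 9 counts at 24 h, 0 and 4 at 48 h and 1 and 8 at 72 h, and H2-Ab1 no more than 5 at any time.

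The microglia list did not follow this course. It summed to 1467 CPM in saline and 588 in IFN-γ wells at 6 h, 1334 and 1406 at 24 h, 1411 and 1145 at 48 h and 1219 and 1721 at 72 h. The monocyte list had 6.53 and 8.22 CPM at 6 h, 5.73 and 19.3 at 24 h, 2.03 and 8.92 at 48 h and 1.87 and 8.35 at 72 h. Its part in the class II counts was not tested.

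**Figure D4:**
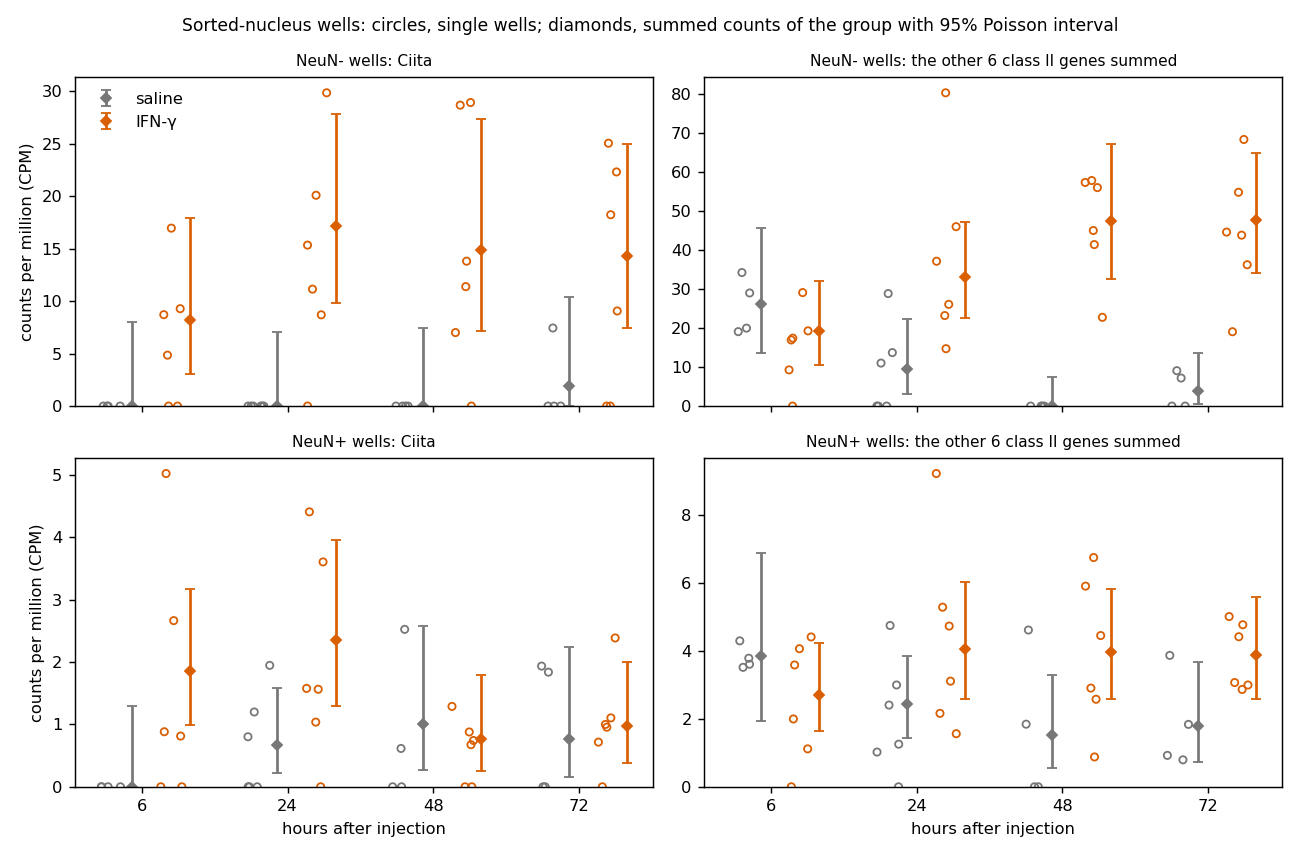
CPM of Ciita (left) and of the 6 class II genes other than Ciita summed (right) in NeuN- (top) and NeuN+ wells (bottom) by time, with single wells as circles and group totals with 95% Poisson intervals as diamonds; the scales differ between panels. In NeuN- wells the summed IFN-γ totals are 19.2, 33.2, 47.6 and 47.7 CPM, and those of Ciita 8.22, 17.1, 14.9 and 14.3 CPM.

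By edgeR without a filter, IFN-γ against the saline wells of the same time called 0 of 7 members in NeuN- wells at 6, 24, 48 and 72 h, where 2.33%, 3.25%, 0.249% and 0.246% of all genes with a count were called (11.6%, 14.3%, 1.4% and 1.2% of the genes that passed the filter). At an unadjusted p under 0.05 the counts were 1, 2, 5 and 3 of 7, where 2409 of 18486, 3095 of 19276, 1309 of 18463 and 1195 of 18678 genes passed it. DESeq2 called 0. Ciita came nearest, with a log2 fold change of 4.14 (SE 1.20, adjusted p = 0.0123) at 24 h, and Cd74 had 4.01 (SE 1.31, adjusted p = 0.196) at 48 h and 4.05 (SE 1.33, adjusted p = 0.218) at 72 h. When all 18 saline wells of a fraction served as controls, a comparison added in this unfiltered form after the data were seen, Ciita was called higher in NeuN- wells at 24 h (3.51, SE 0.69, adjusted p = 1.37e-05), 48 h (3.29, SE 0.73, adjusted p = 0.0018) and 72 h (3.31, SE 0.71, adjusted p = 0.00148), and not at 6 h (2.56, SE 0.71, adjusted p = 0.0164). Genes called higher in these 4 fits were 2.54%, 2.46%, 0.291% and 0.223% in order of time. When each IFN-γ well was left out in turn, the Ciita call held in 6 of 6 fits at 24 h and in 4 of 6 at both 48 and 72 h. It was lost without IFN-γ well 4 or 6 at 48 h (log2 fold change 3.04, adjusted p = 0.01999 and 0.0192) and without well 1 or 6 at 72 h (3.01 and 3.12, adjusted p = 0.0178 and 0.0108).

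NeuN+ wells held class II genes at lower CPM and in other proportions. These wells also held glial markers, with medians of 159 CPM for the microglia list and 368 CPM for the oligodendrocyte list. The part of glial transcript in their class II counts was not tested. Over all times Ciita had 12 counts in saline and 39 in IFN-γ wells (0.661 and 1.46 CPM, ratio 2.21, 1.13 to 4.63). H2-Ab1 had 2 and 24 counts (0.110 and 0.899 CPM, ratio 8.15, 2.02 to 71.2), with a count in 2 of 18 saline and 14 of 24 IFN-γ wells. H2-Aa had 1 and 12 counts and H2-Eb1 2 and 9, while Cd74 had 8 and 7 (ratio 0.594, 0.183 to 1.88). Cd74, the most abundant member in microglia-like nuclei, was therefore not higher in the IFN-γ total, and H2-Ab1 was the chain with the most counts. H2-DMa was the most frequent of the 6 in both treatments (28 and 38 counts, ratio 0.922, 0.551 to 1.56), with Brd2 on the other strand as above.

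In NeuN+ wells edgeR without a filter called 0 of 7 members at every time, where 0.714%, 1.08%, 0.138% and 0.404% of genes were called (1.41%, 1.66%, 0.189% and 0.808% past the filter). At an unadjusted p under 0.05 there were 1, 2, 2 and 1 members, where 2870 of 25053, 3671 of 26010, 2248 of 25415 and 3027 of 25262 genes passed it. DESeq2 called 0 at each time. Against saline wells of all times 1 of 7 was called at 24 h, H2-Ab1 (log2 fold change 2.67, SE 0.70, adjusted p = 0.00677), where 1.03% of genes were called higher. That call held in 2 of 6 fits that each left out 1 IFN-γ well and was lost without well 3, 4, 5 or 6 (adjusted p = 0.0713, 0.0268, 0.0285 and 0.0136).

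Within IFN-γ wells several members were higher in NeuN- than in NeuN+ wells. Without a filter 0, 3, 3 and 5 of 7 members were called at 6, 24, 48 and 72 h, where 5.73%, 5.94%, 5.35% and 6.46% of genes were called higher, and DESeq2 gave 1, 3, 3 and 5. At 24 h these were H2-Eb1 (log2 difference 5.22, SE 0.97), H2-Aa (4.01, SE 0.84) and Ciita (2.44, SE 0.57), at 48 h Cd74 (5.25, SE 0.87), Ciita (3.68, SE 0.78) and H2-Aa (3.46, SE 0.76), and at 72 h Cd74 (4.33, SE 0.78), H2-Aa (4.32, SE 0.88), H2-Eb1 (3.45, SE 0.85), Ciita (3.38, SE 0.70) and H2-DMb1 (3.10, SE 0.99). H2-DMb1 at 72 h kept its call in 6 of 12 fits that each left out 1 well, and Ciita at 24 h and H2-Eb1 at 72 h in 11 of 12. Without NeuN- well 2 the Ciita difference at 24 h was 1.82 (adjusted p = 0.0718), and without NeuN- well 1 that of H2-Eb1 at 72 h was 2.73 (adjusted p = 0.0465). H2-DMb1 lost its call without NeuN- well 3 or 6 or NeuN+ well 2, 3, 4 or 6, with adjusted p values from 0.0111 to 0.254. H2-Ab1 differed by 1.58 to 2.04 after 6 h and was called at no time, nor was H2-DMa. In saline wells of all times 2 of 7 were called higher in NeuN- wells, H2-Aa (2.82, SE 0.72, adjusted p = 0.000811) and H2-Ab1 (2.70, SE 0.75, adjusted p = 0.00274), where 6.95% of genes were, and 0 by DESeq2.

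Whether the IFN-γ effect itself differed between the fractions could not be shown. The interaction of fraction and treatment called 0 of 7 members at the 4 times, where 0.434%, 1.22%, 0.0618% and 0.151% of genes were called. At an unadjusted p under 0.05 there were 0, 0, 1 and 1 members, where 2081 of 25572, 2756 of 26492, 1491 of 25879 and 1600 of 25762 genes passed it. DESeq2 called 0, with groups at 0 counts on 1 side of most of these fits. Between successive times within IFN-γ wells 0 of 7 were called in NeuN- wells (1.88%, 2.22% and 0.0512% of genes from 6 to 24, 24 to 48 and 48 to 72 h) and in NeuN+ wells (0.828%, 0.838% and 0.2%), and DESeq2 called 0 as well. At an unadjusted p under 0.05 there was 1 member in NeuN- and there were 2 in NeuN+ wells, all from 24 to 48 h, where 2805 of 21486 and 3710 of 28034 genes passed it. The largest step in NeuN- wells was that of Cd74 from 24 to 48 h (2.49, SE 0.85, adjusted p = 0.0639). Times are different mice, so a step in time and a difference between mice cannot be told apart.

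Of the genes upstream of Ciita, Irf1 stood at 390, 228, 28.3 and 17.9 CPM in NeuN- IFN-γ wells at the 4 times, against 1.87 to 2.18 in saline. In edgeR with the filter, Irf1 (log2 fold change 6.88, SE 0.44) and the receptor kinase gene Jak2 (1.87, SE 0.13) were called at 6 h, and Irf1 (6.25, SE 0.60) but not Jak2 (0.84, SE 0.16) at 24 h. At 48 and 72 h Irf1 did not pass the filter, and without it was not called (3.21, SE 0.97, adjusted p = 0.106, and 2.76, SE 1.03, adjusted p = 0.415). In NeuN+ wells Irf1 was called at 6 and at 24 h (6.24, SE 0.51, and 5.94, SE 0.36). The repressor Socs1 had 0 counts in saline and 31.5 CPM in IFN-γ wells at 6 h in the NeuN- fraction. Enhanceosome genes gave 0 calls among 1 or 2 tested in NeuN- and 4 in NeuN+ wells. Of the processing genes Ctss was called once, in NeuN- wells at 72 h (1.67, SE 0.41, adjusted p = 0.00342), and of the co-stimulation genes Cd86 once, at 6 h (2.08, SE 0.45, adjusted p = 7.99e-05). Class I genes were far more abundant than the members in these wells. Nlrc5 stood at 614 CPM at 6 h in NeuN- IFN-γ wells and was called at all 4 times in both fractions, and H2-K1 stood at 187 CPM at 24 h against 21.0 in saline.

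By likeness of pattern over the 42 NeuN- wells, the genes nearest to the summed 6 members among 6799 with 100 counts or more were H2-D1 (Pearson r of log2(CPM + 1) = 0.813), Ddx60 (0.743), C4b (0.714), Irgm1 (0.706) and H2-K1 (0.701). Over the 21 sums of class and library in the nuclei, among 15587 genes, they were Gbp5 (0.948), Chek2 (0.946), Mx1 (0.936), Mgea5 (0.925) and Dtx3l (0.925). The points share libraries and differ in depth, and the values are a description.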

How the data were processed

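The deposited tables held counts of unique molecular identifiers (UMIs) per gene, not normalized, which the authors made from 3′ libraries aligned with STAR to GRCm38 with Gencode vM10 (the version of STAR was not given in the sources used here), introns included for the nuclei. The authors had removed neuronal doublets with glia before deposit, so no doublet caller was run. Members and gene lists were chosen with earlier results of these data known.

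Wells were fitted with edgeR 4.0.16 in R 4.3.3 (quasi-likelihood test, TMM scaling, filterByExpr), and calls needed a Benjamini-Hochberg adjusted p under 0.01 and a log2 fold change over 1. No member passed that filter, so fits without it are reported, an alternative to the planned test. DESeq2 1.42.0 was a further alternative. Nuclei were clustered by Leiden (resolution 1, 2000 variable genes without class II genes, 30 components, 15 neighbours) with leidenalg 0.10.2 and scikit-learn 1.9.0. UMIs were summed per class and library and fitted with edgeR for genes with 10 UMIs or more. Calls there needed an adjusted p under 0.01 and a log2 fold change over 3 in each IFN-γ library. Named genes were all members, the called and defining genes of the 5 fixed lists, class I genes and, for likeness, 5 genes in each of 2 rankings. Intervals are 95% exact Poisson or Clopper-Pearson and cover counting error only, as do floors of 3 UMIs. One upstream gene is not reported here.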

Additional observations from a re-analysis of the deposited data

Results flagged for a closer look

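In 2 of 59 groups of 4 to 6 wells tested, the highest well stood apart from the others by Dixon's criterion, which chance meets in about 1 group in 20. H2-Ab1 in NeuN+ IFN-γ wells at 72 h had a highest well of 3.18 CPM, with 0.716 CPM in the nearest. H2-Eb1 in NeuN- IFN-γ wells at 72 h had a highest well of 25.1 CPM, with 9.12 CPM in the nearest.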

How the results depend on the processing

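With the filter on low counts no member could be tested in wells, so counts of calls there started from 0. Without it, NeuN- less NeuN+ IFN-γ wells gave 3, 3 and 5 members at 24, 48 and 72 h, and DESeq2 1, 3, 3 and 5 from 6 h on. Saline wells gave 2. Saline wells of all times without a filter, chosen after seeing the data, gave 1 in NeuN- wells at 24, 48 and 72 h and 1 in NeuN+ wells at 24 h. In microglia-like nuclei the count was 5 without a filter, where the median log2 fold change of all genes was 0.57 in place of 0.10. With 1 IFN-γ mouse left out there is no test, and members past the fold limit numbered 5 and 5 in microglia-like (272 and 305 of 7795 genes), 3 to 4 in oligodendrocyte-like (145 to 216 of 12806), 1 to 2 in GABA (110 to 136 of 18678) and 0 to 2 in VGLUT2 nuclei (128 to 161 of 18728). Ctss in NeuN- wells at 72 h lost its call under DESeq2 (1.70) and when single wells were left out (1.34 to 1.91). Thinning moved 7 shares of nuclei. Of the other alternatives, 498 gave a count of members called that was equal or close to the planned count. Most of these left out 1 well, where no member passed the filter. The count there was 0 without a fit, so this agreement was fixed in advance and shows no stability. A further 236 single values stayed alike. For shares of nuclei that means inside the counting interval, and for log2 fold changes the same direction and still called. The cause of these changes was not tested. No paired analysis was possible because the labels do not tie wells or nuclei of different groups to 1 mouse or batch. The highest count of Ciita in a NeuN- well was 9, so 1 count moves a well's value.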
